A study of Homo sapiens with 7 samples.

Results

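HepG2 is a human liver cancer cell line, and the genes described here are 10 members of the insulin-like growth factor (IGF) axis in these cells. They are the ligand IGF1, the carriers IGFBP1, IGFBP2, IGFBP3, IGFBP4 and IGFALS, and the receptors IGF1R, IGF2R, INSR and GHR. The members were taken by symbol, a rule that uses no measured value, and they are 10 of 23303 loci with a gene symbol among 30032 loci in the expression table. A locus is the stretch of a chromosome that the table lists for a gene. All 7 samples are HepG2 without a treatment named in the labels, with 1 sample per assay: RNA-Seq after removal of ribosomal RNA, native MNase-Seq, which maps nucleosome positions from chromatin that was not crosslinked, and ChIP-Seq of 5 histone marks: the activation marks H3K4me3, H3K27ac and H3K9ac, and the repressive marks H3K9me3 and H3K27me3. The labels give no replicates and no groups, so no difference was tested. Counts of members are set beside the share over 22065 named loci that have a usable status and a strand, and shares of nucleosome positions beside those of the whole genome.

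In the liver, growth hormone acts through its receptor GHR to raise the output of IGF1, which circulates bound to IGFBP3 and the acid labile subunit IGFALS. IGF1 signals through the tyrosine kinase IGF1R, insulin through the related kinase INSR, and IGF2R carries the ligand IGF2 and mannose 6-phosphate proteins to lysosomes. IGFBP1 is a liver binding protein that insulin represses, and IGFBP2 and IGFBP4 are further carriers that limit the access of IGFs to their receptor. H3K4me3, H3K9ac and H3K27ac are found at active gene starts, H3K27ac also at enhancers, and H3K27me3 and H3K9me3 are marks of silent chromatin.

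The promoter sequences of 7 windows are shown first, those of 4 genes with at least 3 nucleosome positions at the start that carried all 3 activation marks and those of IGFBP3 and IGF1 with none. Each is the 250 bases before a RefSeq transcript start on GRCh38.p14, written 5′ to 3′ along the gene. Capitals mark matches, on either strand, to any of 6 motifs: the TATA box TATAAA, the CCAAT box, the GC box GGGCGG, the forkhead-type motif GTAAACA, the STAT-type motif TTCNNNGAA and the HNF1 motif. Matches may overlap. RefSeq windows were found for 9 of the 10 members, 18 windows in all. IGFBP1 had none.
IGF1R: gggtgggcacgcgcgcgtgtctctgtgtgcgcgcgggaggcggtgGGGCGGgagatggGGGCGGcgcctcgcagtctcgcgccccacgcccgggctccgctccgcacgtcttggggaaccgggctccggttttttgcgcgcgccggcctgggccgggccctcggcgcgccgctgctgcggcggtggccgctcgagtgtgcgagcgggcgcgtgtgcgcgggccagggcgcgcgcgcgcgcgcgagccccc
INSR: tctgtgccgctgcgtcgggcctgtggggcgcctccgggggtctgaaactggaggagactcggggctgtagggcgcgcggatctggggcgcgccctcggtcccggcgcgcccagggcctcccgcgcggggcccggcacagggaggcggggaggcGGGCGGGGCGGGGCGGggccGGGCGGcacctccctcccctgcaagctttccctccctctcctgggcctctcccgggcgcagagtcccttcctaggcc
IGF2R: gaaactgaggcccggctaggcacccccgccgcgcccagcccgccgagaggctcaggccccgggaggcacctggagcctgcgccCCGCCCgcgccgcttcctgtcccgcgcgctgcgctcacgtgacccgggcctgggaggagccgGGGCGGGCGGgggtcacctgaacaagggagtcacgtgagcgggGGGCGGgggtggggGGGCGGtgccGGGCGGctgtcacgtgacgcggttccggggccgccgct
IGFALS: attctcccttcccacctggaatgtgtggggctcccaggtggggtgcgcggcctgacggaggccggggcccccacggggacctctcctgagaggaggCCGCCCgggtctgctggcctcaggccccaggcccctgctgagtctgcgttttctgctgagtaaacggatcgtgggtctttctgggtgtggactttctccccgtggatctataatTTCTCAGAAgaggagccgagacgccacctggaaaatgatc
IGFBP3: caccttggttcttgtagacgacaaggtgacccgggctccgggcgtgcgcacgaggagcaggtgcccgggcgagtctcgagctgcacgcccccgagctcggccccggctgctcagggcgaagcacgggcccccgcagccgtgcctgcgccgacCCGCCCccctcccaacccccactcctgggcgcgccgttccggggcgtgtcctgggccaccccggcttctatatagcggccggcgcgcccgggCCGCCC
IGF1, first window: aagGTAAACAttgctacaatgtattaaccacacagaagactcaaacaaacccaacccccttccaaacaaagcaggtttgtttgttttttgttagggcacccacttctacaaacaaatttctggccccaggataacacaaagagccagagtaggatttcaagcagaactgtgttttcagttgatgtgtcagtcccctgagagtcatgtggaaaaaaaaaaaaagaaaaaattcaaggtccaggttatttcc
IGF1, second window: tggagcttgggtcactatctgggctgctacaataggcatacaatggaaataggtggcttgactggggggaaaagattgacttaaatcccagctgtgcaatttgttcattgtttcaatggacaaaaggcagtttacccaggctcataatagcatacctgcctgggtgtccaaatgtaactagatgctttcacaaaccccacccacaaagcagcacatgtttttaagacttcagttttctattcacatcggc

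These windows lie at chr15:98648289-98648538 on the plus strand for IGF1R, chr19:7294415-7294664 on the minus strand for INSR and chr6:159968832-159969081 on the plus strand for IGF2R. IGFALS is at chr16:1794909-1795158, IGFBP3 at chr7:45921273-45921522 and IGF1 at chr12:102481748-102481997 and chr12:102478551-102478800, all on the minus strand. The IGF1R window held 48 CpG dinucleotides, more than 99.7% of the 35116 promoter windows in the RefSeq table, whose median was 11. IGF2R held 33, IGFBP3 32, INSR 28, IGFALS 13 and the IGF1 windows 0 and 1. The windows not printed held 24 in IGFBP4, 4 to 22 in IGFBP2 and 0 to 23 in GHR, which overlap those of IGF1 in the case of GHR. Whether CpG content went with expression was not tested. IGFBP3, with an FPKM below 1, held nearly as many as IGF2R, while IGF1, also below 1, held 0 and 1. GGGCGG occurred in 42.6% of all windows. It was found at 6 places in IGF2R, at 4 in INSR, at 2 in IGF1R, at 2 in IGFBP3 and at 1 in IGFALS, and at none in either IGF1 window. The first IGF1 window held GTAAACA, found in 2.98% of windows, 247 bases before the start. IGFALS held TTCNNNGAA, found in 6.57% of windows, 40 bases before the start. TATAAA, at 10.7% of windows, was 29 bases before the start of IGFBP4 and in 3 windows of GHR, 169 to 175 bases before the start, and in none of the 7 windows printed. CCAAT, at 32% of windows, was in none of the 7 either. The HNF1 motif, at 0.0484% of windows, was in none of the 18. A match is a description of letters and not a bound site, and these windows were not placed on the nucleosome positions, which are on another build.

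The expression values are FPKM, fragments scaled to transcript length and to the number of mapped fragments. They are given in 2 columns under the same sample label, called run 1 and run 2 here. These names are labels only: the origin of the columns is unknown, and each could come from its own culture. Expression ranged from IGF2R, at 61.0 in run 1 and 59.6 in run 2, down to IGF1, at 0.113 and 0.106. With expressed taken as a mean FPKM of at least 1, 7 of the 10 members were expressed, against 51.4% of all named loci. The median of the members was 4.69, and that of all named loci was 1.26. The plot of FPKM by gene shows that the order of the 10 genes was the same in both runs. In bulk RNA, fewer cells that express a gene and less RNA per cell cannot be told apart.

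**Figure D1:**
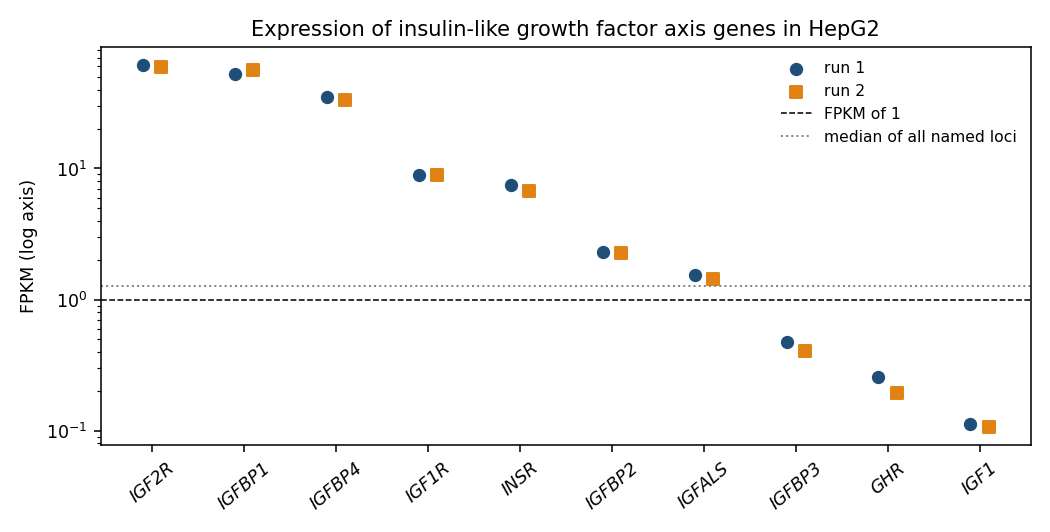
FPKM of each gene (log axis) in run 1 (circles) and run 2 (squares), with the genes in order of their mean and lines at an FPKM of 1 and at the median of all named loci, 1.26. IGF2R, IGFBP1 and IGFBP4 lie above 30, and IGFBP3, GHR and IGF1 lie below 1 in both runs.

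Among the carriers, IGFBP1 had 52.9 in run 1 and 56.8 in run 2, and was the highest carrier. IGFBP4 had 34.8 and 33.5, IGFBP2 had 2.30 and 2.25, and IGFALS had 1.55 and 1.44. IGFBP3, the main carrier of IGF1 in blood, had only 0.472 and 0.408. The carriers thus ranged from above 93.5% of named loci for IGFBP1 to above 44.1% for IGFBP3. Among the receptors, IGF1R had 8.96 and 8.86 and INSR had 7.45 and 6.76. Their means of 8.91 and 7.11 are neighbours in the order, and without replicates this difference could not be set against an error. GHR had 0.257 and 0.194, the widest relative difference between the 2 columns among the members, 28.1% of its mean. The ligand IGF1 was the lowest of the 10, so ligand and growth hormone receptor were both under the limit while IGF1R, IGF2R and INSR were all above it. For IGF2R and IGFBP4 the table also lists a row on the other strand with the same coordinates, at a mean of 0.315 and 0.0635, and the sources used here do not say whether counting used the strand.

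In HepG2 all 9 hepatocyte markers had an FPKM of at least 1, against 51.4% of all named loci. Their median was 1061. Of 10 markers of leukocytes, endothelium and fibroblasts, 8 were below 1, with PTPRC and CD3E listed at 0. PDGFRB had 2.0, and CD68 is listed in a joint row with 6 other symbols. The nucleosome map holds 14217405 positions, and the number that carried a mark ran from 26271 with H3K27me3 to 95886 with H3K27ac. No read counts are given, so the depth behind a position or an FPKM is unknown.

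Marks were counted over each locus plus 10 kb on either side, at positions whose midpoint fell inside. Of 6900 positions over the 10 genes, 169 carried at least 1 mark, or 2.45% (exact 95% binomial interval, Clopper-Pearson, 2.1 to 2.84), against 1.43% of the whole genome. The lists used here hold 203848 marked positions in all. The study's text describes a larger number, for a reason not given in the sources used here, so shares and statements on absent marks hold for these lists only. Intervals cover counting error only, and neighbouring positions are not independent. H3K27ac was at 1.45% of the positions (1.18 to 1.76), or 2.15 times its genome share of 0.674%. H3K4me3 was at 1.0% and H3K9ac at 0.899%, or 1.66 and 1.67 times their genome shares. Without IGF1R the H3K27ac share was 1.11% (0.842 to 1.44), and without GHR it was 1.90%. H3K27me3 was at 0.304% (0.188 to 0.465), against 0.185% in the genome, which lies inside the interval without a flank (0.182 to 0.485) and with a flank of 20 kb (0.177 to 0.428). GHR held 15 of these 21 positions, and without it the share was 0.114% (0.0419 to 0.248). H3K9me3 was at 0.217% (0.122 to 0.358), and its genome share of 0.243% lay inside the interval. At least 1 marked position was found for 9 of 10 members, against 90.0% of all named loci, so this count is close to the background. H3K27me3 was found over 4 members, against 31.2% of named loci, and H3K9me3 also over 4, against 31.9%. The most frequent combination was H3K27ac alone, at 55 positions, followed by H3K4me3/H3K9ac/H3K27ac with no other mark, at 32.

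**Figure D2:**
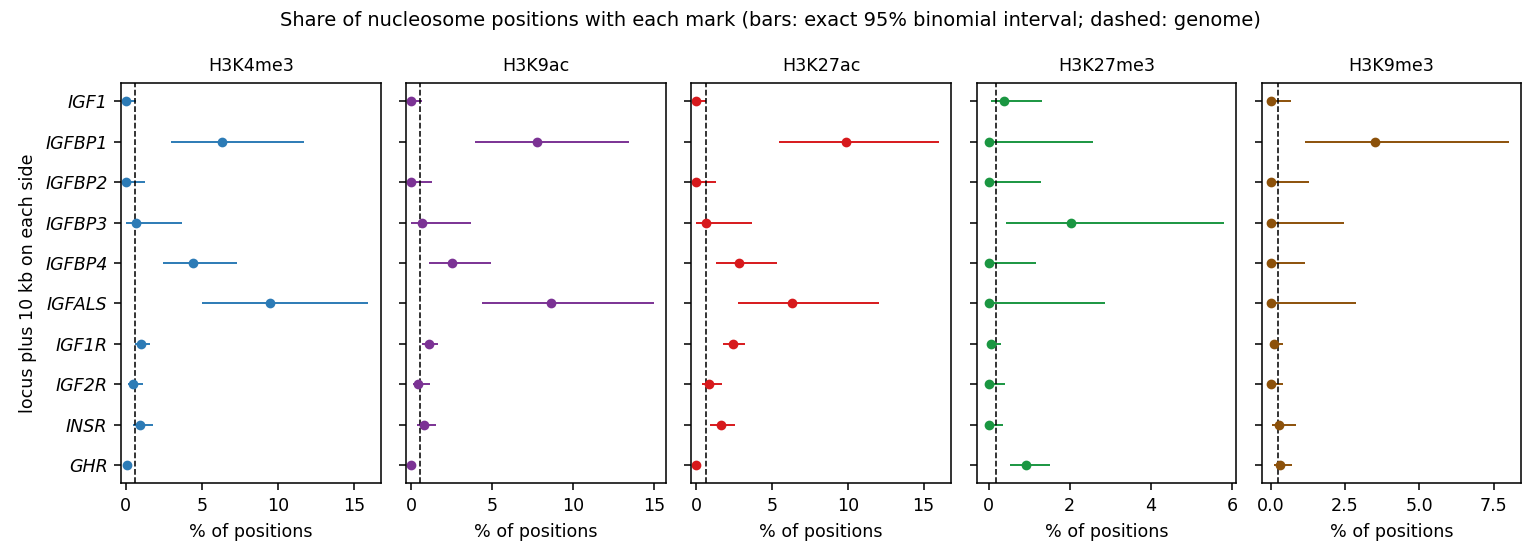
Share of nucleosome positions (%) with each of the 5 marks over each locus plus 10 kb, with exact 95% binomial intervals as bars and the genome share as a dashed line. The whole interval of IGFBP1 lies above the genome line for 4 of the 5 marks, H3K9me3 among them, and those of GHR and IGFBP3 do for H3K27me3.

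A position with all 3 activation marks is called trivalent here, whatever else it carries. Counted within 2 kb of the listed start, at least 1 trivalent position was found at 5 of 10 members, against 41.6% of named loci, and at least 3 at 4 members, against 26.8%. These 4 were IGF1R with 9, IGFALS with 6, IGF2R with 4 and INSR with 3, and IGFBP1 had 1. The other 5 had 0. H3K4me3, with or without other marks, was within 2 kb of the start of 7 members, against 51.6% of named loci. The plot of positions near the start shows where they lie.

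**Figure D3:**
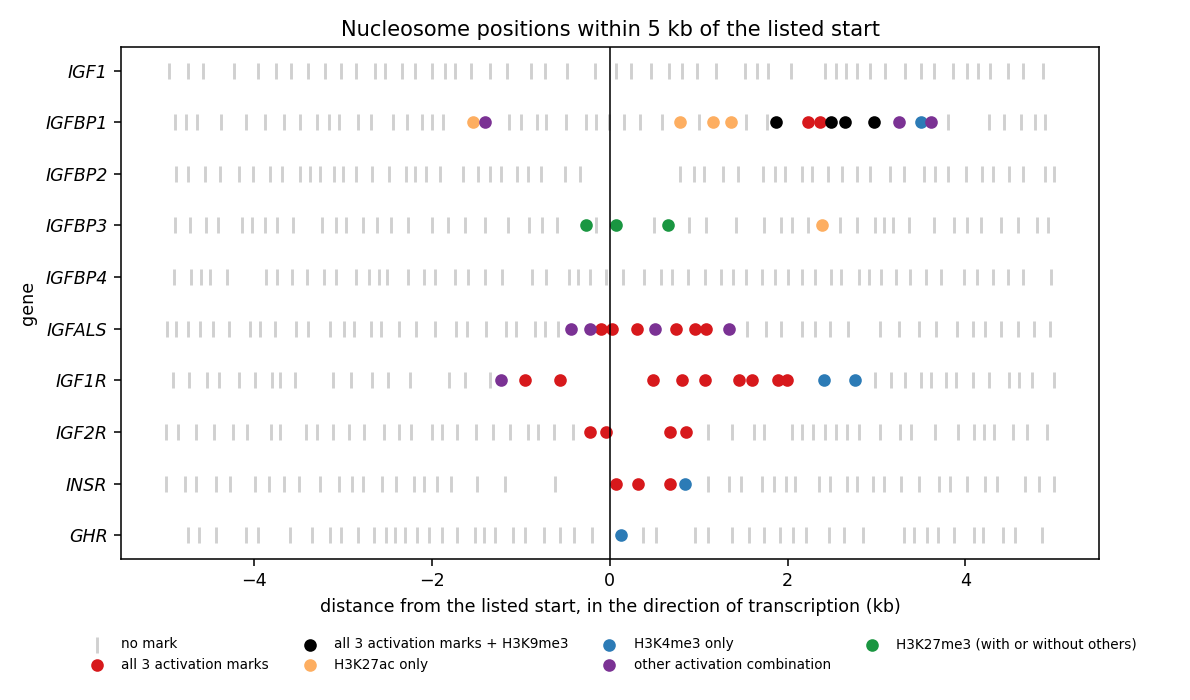
All nucleosome positions within 5 kb of the listed start of each gene, by distance in kb in the direction of transcription, coloured by the marks they carry (grey bars: no mark). Trivalent positions flank the starts of IGFALS, IGF1R and IGF2R and follow that of INSR, those of IGFBP1 lie 1.87 to 2.97 kb downstream, and IGFBP2 and IGFBP4 show no mark in this range.

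IGF1R, listed at chr15:99191769-99507760, had trivalent positions from 0.95 kb upstream of its start to 1997 bp downstream, with H3K4me3 alone at 2407 and 2762 bp. It had more trivalent positions within 2 kb than 99.3% of named loci. Its expression was nonetheless moderate, and the median FPKM of named loci with 9 trivalent positions was 23.5. INSR, listed at chr19:7112266-7294011, had trivalent positions at 70, 315 and 680 bp and H3K4me3 alone at 845 bp. No marked position lay upstream of its listed start in the 10 kb counted. IGF2R, listed at chr6:160389895-160532613, had 4 trivalent positions from 224 bp upstream to 858 bp downstream and the highest FPKM of the 10. The locus LOC729603, whose mean FPKM was 2.31, is listed with the same coordinates, which need not give its own start.

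IGFALS, listed at chr16:1840237-1845065, carried 10 marked positions from 431 bp upstream to 1.34 kb downstream, 6 of them trivalent. Its mean FPKM was 1.5. Of the 1348 named loci with at least 6 trivalent positions within 2 kb, 10.3% had a lower FPKM, and named loci with an FPKM from 1 to under 5 and at least 6 such positions made up 0.675% of all, limits chosen after its values were seen. A further 5 marked positions within its flank lie 11396 to 13004 bp downstream. The listed starts of NUBP2, of SPSB3 and of a joint locus of MRPS34 and NME3 lie among them, with FPKM of 25.0, 8.19 and 59.1. Those of HAGH and FAHD1 lie in its upstream flank, with no marked position within 2 kb and FPKM of 0.196 and 30.9. Both rows list the same start on the plus strand, so it need not be the start of either gene.

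**Figure D4:**
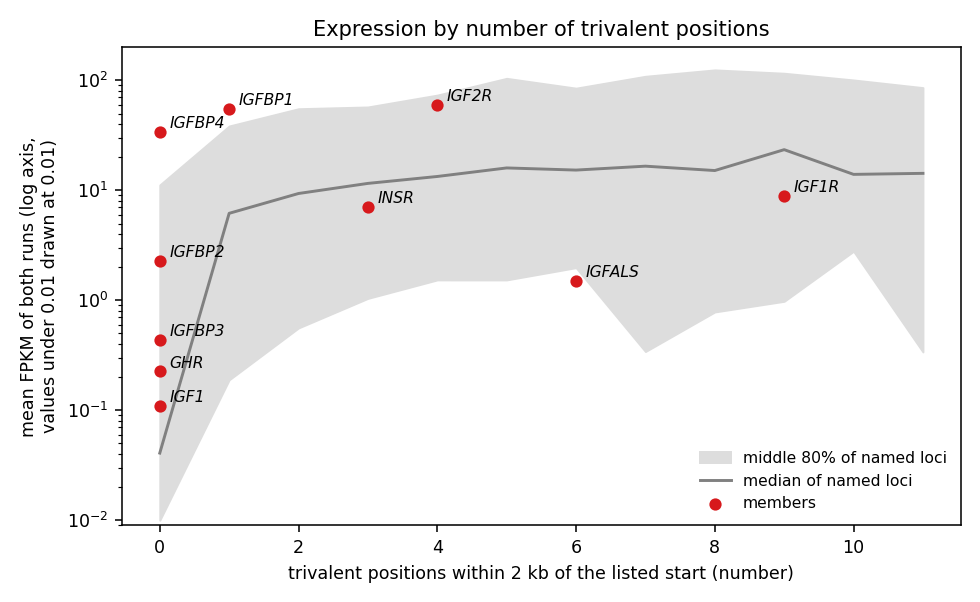
Mean FPKM of each member (log axis) against its number of trivalent positions within 2 kb of the listed start, over the median (line) and the span from the 10th to the 90th percentile (grey) of named loci with that number. IGFBP1 and IGFBP4, whose listed starts are uncertain, lie above the grey band at 1 and 0 trivalent positions, and IGFALS lies below it at 6.

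IGFBP1 had the highest share of marked positions of the 10, with 18 of 142, or 12.7% (7.69 to 19.3). IGFALS was close, with 15 of 127, or 11.8% (6.76 to 18.7). Both have the shortest windows, 26.9 and 24.8 kb, and how far the share depends on window length was not tested. The locus of IGFBP1 is listed at chr7:45926323-45933267. The longest stretch, with gaps of at most 1 kb between marked positions, ran from chr7:45927042 to 45930006 and held 12 positions. In order downstream, it began with H3K27ac alone at 788, 1168 and 1368 bp. It went on with 6 trivalent positions from 1873 to 2968 bp and closed with H3K4me3/H3K9ac at 3258 bp, H3K4me3 alone at 3503 bp and H3K4me3/H3K9ac at 3613 bp. Upstream, H3K27ac was found alone or with H3K9ac at 5 positions between 5.48 and 1.40 kb before the start, without H3K4me3. The listed locus is 1772 bp longer than the RefSeq gene. Which end the difference belongs to was not determined, so the listed start of IGFBP1 is uncertain by about that distance.

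Of the 6 trivalent positions of IGFBP1, 4 also carried H3K9me3, a mark of heterochromatin. They lie at 1873, 2493, 2650 and 2968 bp from the listed start. Such positions were rare: 114 of 14217405 in the genome carried H3K9me3 with all 3 activation marks, which is 0.266% (0.219 to 0.319) of all trivalent positions. At least 1 was found at 0.784% of named loci. IGFBP1 was the only named locus with at least 4, or 0.00453% of 22065, a limit chosen after its value was seen. It also had a position with H3K9me3 alone at 7615 bp, so 5 of its 142 positions carried that mark, 3.52% (1.15 to 8.03) against 0.243% in the genome. None of its positions carried H3K27me3. Each mark comes from a separate library of many cells, so marks on the same position need not be on the same molecule.

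IGFBP3 lies beside IGFBP1 on chromosome 7, listed at chr7:45951844-45960871 on the other strand, and the windows of both genes overlap slightly. Its marks differed from those of IGFBP1. H3K27me3 was at 3 positions, 260 bp upstream, 68 bp downstream and 655 bp downstream. The middle one also carried H3K4me3 and H3K9ac, a combination found at 148 positions in the genome. Apart from H3K27ac alone at 2.39 kb no other position of IGFBP3 was marked. Of the 10 members only IGFBP3 had H3K27me3 within 2 kb of its listed start, against 7.42% of named loci. H3K27me3 was at 2.03% of its positions (0.420 to 5.81) against 0.185% in the genome, on 3 positions of 148. The neighbouring genes thus differed in expression, at means of 54.9 and 0.440, and in the marks over their loci plus 10 kb. Because the listed start of IGFBP1 is uncertain, the marks at both starts could not be compared.

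IGFBP4 and IGFBP2 were expressed without a trivalent position near their listed starts. The locus of IGFBP4, chr17:38581687-38616867, is 35181 bp long, while the RefSeq gene has 14276 bp, so its listed start need not be that of the gene. Of 316 positions 21 were marked, or 6.65%, with both flanks included. Inside the locus, H3K4me3 was at 8 positions from 17.7 to 19.8 kb, 2 of them with H3K9ac and none with H3K27ac. The 3 trivalent positions in its window lie 7.79 to 8.17 kb upstream, at the start listed for TOP2A, a topoisomerase gene with an FPKM of 131.

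IGFBP2, listed at chr2:217498127-217529158, had 0 marked positions of 284, which allows a share of up to 1.06% by 3 counts and 1.29% by the exact interval. Of the 11352 named loci with an FPKM of at least 1, 51 had no marked position within the locus plus 10 kb, which is 0.449% of them and 0.231% of all named loci. Of the 2806 loci with an FPKM from 1 to under 5, the range of IGFBP2, the share was 1.53%. The listed locus of IGFBP2 differs in length from the RefSeq gene by -577 bp, so its start need not be exact. Around this listed start no nucleosome position was listed from 336 bp upstream to 794 bp downstream. This gap of 1130 bp was wider than at 95.2% of named loci, whose median was 395 bp. Since peaks were called only at listed positions, no mark could be listed inside this gap. IGF1R had a gap of 1043 bp at its start, IGF2R 725 bp and INSR 680 bp, each with trivalent positions on at least 1 side. Whether the gap takes part in the missing marks of IGFBP2 was not tested.

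The genes of the growth hormone side, IGF1 and GHR, were low and had few or no activation marks. IGF1, listed at chr12:102789532-102874378, had 2 marked positions of 544, both with H3K27me3, at 32.9 and 74.5 kb inside the gene. H3K4me3, H3K9ac and H3K27ac were at 0 of 544 positions, which allows a share of up to 0.551% by 3 counts and 0.676% by the exact interval. Their genome shares of 0.603%, 0.539% and 0.674% all lie inside the exact interval, so a lower share over IGF1 was not detectable. GHR, listed at chr5:42423568-42721939, had H3K4me3 alone 133 bp downstream of its start and no H3K9ac or H3K27ac at 1638 positions, which allows up to 0.183% by 3 counts and 0.225% by the exact interval. It carried H3K27me3 at 15 positions, or 0.916% (0.513 to 1.51) against 0.185% in the genome. They were not at the listed start but spread from 49.3 to 298.9 kb, just past the end of the locus, mostly 1 at a time. RefSeq windows of GHR reach from chr5:42423189 to 42565863 on GRCh38.p14, so other starts lie inside the gene. The distance of the H3K27me3 positions from those starts was not determined. H3K9me3 was at 5 positions, 1 of them shared with H3K27me3. Among 2120 named loci of at least 100 kb with their own coordinates, the H3K27me3 share of GHR was above that of 99.0%.

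The long receptor genes carried marks far from their starts, as the plot along the 4 longest loci shows. IGF1R had H3K27ac with no other mark at 29 of 1768 positions, or 1.64% (1.1 to 2.35) against 0.285% in the genome. All 29 lay inside the gene and more than 5 kb from the start, and the number ranked 129 among named loci of any length. By share, IGF1R was above 94.1% of the 2120 long loci and INSR above 86.7%. They formed stretches of up to 5 such positions, at 21.9 to 23.8, 43.7 to 44.9, 128 to 129, 137 to 139 and 152 to 153 kb among others. A different stretch at 203 to 204 kb held H3K9ac at 5 positions, 3 of them with H3K4me3 and none with H3K27ac. At 217 kb there was H3K4me3 alone and then a trivalent position. INSR had H3K27ac alone at 11 of 1042 positions, or 1.06% (0.528 to 1.88), 5 of them in a stretch from 158 to 159 kb. At 95.4 to 96.9 kb INSR held 7 marked positions, 3 of them trivalent and 3 with H3K4me3 alone, and no named locus of the table starts there. Of the long loci with an FPKM of at least 1, 14.6% had at least 3 trivalent positions inside the gene that were over 5 kb from their own start and over 2 kb from any other listed start. IGF2R, the highest in expression, had H3K27ac alone at 4 of 898 positions and no other mark beyond its start.

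**Figure D5:**
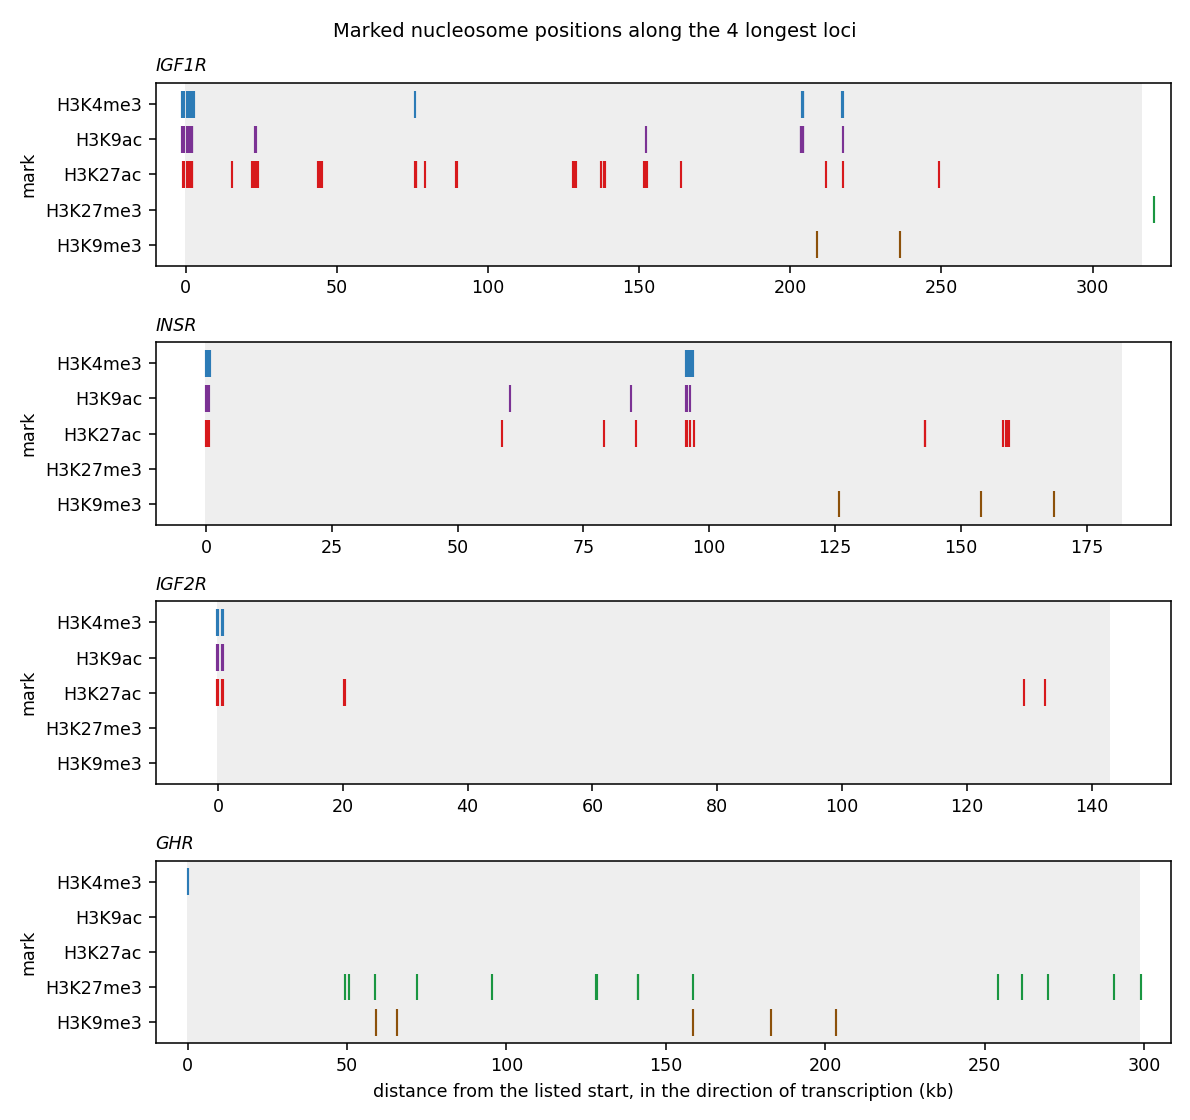
Positions with each mark along IGF1R, INSR, IGF2R and GHR, by distance from the listed start in kb (grey: the locus; 10 kb is shown on each side). IGF1R and INSR show H3K27ac along the gene, IGF2R almost none beyond its start, and GHR shows H3K27me3 and H3K9me3 and no H3K27ac.

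Nucleosome positions themselves differed little among the genes. The density over each locus plus 10 kb ranged from 5.10 positions per kb at IGFBP3 to 5.73 at IGFBP4, and the median of all named loci was 5.19. The median distance between neighbouring starts of positions was shortest at IGFBP2, 165 bp, and longest at IGFBP3, 192 bp, with 180 bp in the genome.

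Other genes of the pathway were compared by FPKM and by trivalent positions within 2 kb of the listed start. Of 9 other ligands, binding proteins and mRNA-binding proteins, 7 had an FPKM of at least 1, 2 of them through a single joint row. At least 3 trivalent positions were found at 3 of the 9, all of them mRNA-binding proteins and none a ligand or IGF-binding protein. Over all named loci the shares are 51.4% and 26.8%, and they apply to the lists that follow too, which are small. The highest was this row of IGF2, INS and INS-IGF2, at 201 in run 1 and 183 in run 2, which does not say which gene the reads belong to. The mRNA-binding proteins IGF2BP1 and IGF2BP3 followed, with means of 49.0 and 47.3, and IGFBPL1 was the lowest with 0.217. Of 4 proteases of binding proteins and their inhibitors, only STC2, an inhibitor of the protease PAPPA, was expressed, at 25.2, and it had 9 trivalent positions. PAPPA2 was the lowest with 0.00852. Of 7 genes that act downstream of GHR, 5 were expressed, against 51.4% of named loci. Among them SOCS2 and CISH lay close to the limit, with means of 1.04 and 1.05, and SOCS2 had 0.806 in run 2. STAT5B, a transcription factor that GHR activates, was the highest with 7.64, and the feedback inhibitor SOCS3 was the lowest with 0.166. Of 18 genes of insulin and IGF receptor signalling, 15 were expressed, 1 of them through a joint row, against 51.4% of named loci. At least 3 trivalent positions were found at 9 of the 18, against 26.8%. The adaptor GRB2 was the highest with 58.5, and the insulin receptor substrate IRS1 had 5.58, whereas IRS2 had 0.0910 and IRS4 0.00832. INSRR was listed at 0.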

How the data were processed

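RNA, native nucleosomes and 5 histone marks were measured in HepG2, with 1 sample each. The authors deposited expression as FPKM in 2 columns, in the column layout of Cuffdiff. The columns of their own comparison (fold, test and p-values) were not used. The submitters' processing notes name the build hg19, BWA for the ChIP-Seq and MNase-Seq reads, and TopHat2 2.1.0, Bowtie, HOMER 4.7 and edgeR for RNA-Seq. How FPKM was computed, and whether the columns are separate cultures, is not given in the sources used here. The authors called nucleosomes with DANPOS and peaks at those positions with NUCLIZE, which filtered by P value and FDR of at most 0.01 and 4-fold enrichment, and deposited coordinates only.

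Each position is 140 bp long, and each of the peaks reached 3 bp beyond the position whose identifier it carries, so peaks were assigned by identifier. Locus starts were read as 0-based, because 954 loci then had exactly the length of the RefSeq gene, against 119 otherwise, and are printed 1-based. Strand came from the order of locus numbers, and for members with 2 rows the row on the RefSeq strand was taken. Shares have exact binomial intervals. A count of 0 allows 3 counts. The counting code was checked on simulated data and recovered 200 of 200 planted loci. This check did not cover strand, listed starts or assignment by identifier. Alternatives were other flanks, windows, FPKM limits, matching rules and single runs. Added after seeing the data were a stricter definition of trivalent, a gene set with own coordinates and leaving out each member in turn. The text names all 10 members, the highest and the lowest of each pathway list, and neighbours whose start lies in a window. IRS1, IRS2, IRS4, IGF2BP3, SOCS2 and CISH were also named after their values were seen. The members and lists were chosen with earlier results of these data known. Python 3.11.15, pandas 2.3.3, numpy 2.4.6, scipy 1.17.1 and matplotlib 3.10.9 were used.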

Additional observations from a re-analysis of the deposited data

How the results depend on the processing

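No paired analysis was possible because there is 1 sample per assay. The share of marked positions over the 10 genes was 2.45%, and ranged from 2.22% without IGF1R to 2.83% without GHR. The number of expressed members was 10 at an FPKM limit of 0.1 and 5 at a limit of 5, and 7 in either run alone. With each member left out in turn, the shares moved beyond the interval without GHR for H3K4me3 (1.29%), H3K9ac (1.18%), H3K27ac (1.90%) and H3K27me3 (0.114%), and without IGF1R for H3K27ac (1.11%). Members with at least 3 trivalent positions numbered 4 within 1 kb of the start and 5 within 5 kb, where IGFBP1 was added. Without positions that also carry H3K9me3, members with at least 1 numbered 4. Percentiles of FPKM depend on the gene set: among loci with an FPKM of at least 0.1, IGFBP2 was above 27.1% of loci in place of 53.8%. Unknown depth limits every statement on absent marks, and the starts of IGFBP1 and IGFBP4 are uncertain. The listed locus also differed in length from the RefSeq gene at IGF1 (-1119 bp), IGFBP2 (-577 bp), INSR (-404 bp), IGFALS (333 bp), IGF2R (296 bp) and GHR (-68 bp). Their listed starts need not be exact either.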
